A study of Mus musculus with 4 samples.

Results

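A set of 10 genes was read from the RNA-seq count table, which were *Cdkn1a*, *Cdkn1b* and *Cdkn1c* (the Cip/Kip inhibitors of cyclin-dependent kinases), *Cdkn2a*, *Cdkn2b*, *Cdkn2c* and *Cdkn2d* (the INK4 inhibitors), and *Rb1*, *Rbl1* and *Rbl2* (the pocket proteins). They were chosen by symbol, and 10 of 10 were found among the 24391 symbols counted. The study compared 2 WT and 2 *Phf2* KO libraries of primary MEFs, fibroblasts grown from mouse embryos at embryonic day 13.5 and arrested in quiescence at confluence. By the labels, all 4 libraries carry Phf2 flox/flox and ERCre/+, a Cre recombinase fused to an oestrogen receptor domain and expressed from the Rosa26 locus, and the *Phf2* KO libraries alone carry the treatment Tamoxifen, given in the protocol as 0.5 µM 4-OHT for 7 days. Loss of Phf2, active Cre and 4-OHT therefore came together and cannot be told apart, and no cycling culture was sequenced, so that a level cannot be compared with that of dividing cells. The WT libraries are described as without tamoxifen, and a vehicle is not named in the sources used here.

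Cells leave the cycle when their cyclin-dependent kinases are held inactive. INK4 proteins bind CDK4 and CDK6 and keep D-type cyclins away from them, whereas Cip/Kip proteins bind complexes of cyclin and kinase, above all those of CDK2. Kinases that stay inactive leave the pocket proteins unphosphorylated, and these then hold E2F factors at the promoters of genes for DNA replication and mitosis. In resting fibroblasts the pocket protein p130, the product of *Rbl2*, joins E2F4 and the MuvB subunits in the DREAM complex, while p107, the product of *Rbl1*, is made mainly by cells that enter the cycle because its gene is itself an E2F target. *Cdkn2a* encodes 2 proteins from 2 first exons, the INK4 protein p16 and the p53 regulator p19Arf, which the counts per gene do not part.

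The libraries held between 21094743 and 26094268 counts, and 3 counts, the detection limit used (counting error only), came to 0.116 to 0.145 CPM, counts scaled by library size and TMM factor. *Phf2* was counted 3244 and 3680 times in replicates 1 and 2 of WT against 1454 and 2158 in *Phf2* KO, over the whole gene and not over the floxed exons alone. Its normalised level in *Phf2* KO was 57.9% of WT (log2 fold change -0.79, standard error 0.14, edgeR adjusted p = 0.999, and 7.67e-19 with the replicate number as a term). Fibroblast markers (11 of 11 counted) summed to between 72670 and 86490 CPM, lower in both *Phf2* KO than in both WT libraries. Most of this sum came from *Col1a1*, *Col1a2*, *Col3a1* and *Fn1*. Of the 11 markers, 8 had a log2 fold change below 0 and 3 above it (*Vim* 0.02, *Thy1* 0.03 and *Pdgfrb* 0.10). Macrophage markers stood apart along the replicate number, summing to 4015 and 4615 CPM in replicate 1 of WT and *Phf2* KO and to 886 and 1394 in replicate 2, with 16 of 17 in the table and none of these at 3 counts or fewer in all. Endothelial, muscle, epithelial and neural markers summed to at most 61.4 CPM, and *Tie1*, *Myod1* and *Myog* were at 3 counts or fewer over all libraries. *Xist* was counted at least 8336 times in both replicate 1 libraries and at most 12 times in both replicate 2 libraries, and the Y-linked *Ddx3y* at most 10 and at least 1271 times, so the replicate numbers also differed in the sex of the cells. In RNA from whole cultures, fewer cells of a type and less RNA per cell cannot be told apart.

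Per length of exon, the inhibitor and pocket protein genes spread over nearly 3 orders of magnitude, and their order was led by *Cdkn1a*, *Cdkn1c* and *Cdkn2a*. *Cdkn1a*, which encodes p21, the p53-induced inhibitor, stood at 332.2 and 385.6 CPM per kb in replicates 1 and 2 of WT against 316.1 and 325.1 in *Phf2* KO, above at least 99.2% of the 13355 tested genes with a length. *Cdkn1c*, the imprinted gene for p57, stood at 184.1, 181.2, 176.5 and 157.6 CPM per kb in the same libraries. *Cdkn2a* followed with 98.6 and 127.4 CPM per kb in WT against 118.9 and 131.3 in *Phf2* KO, and *Cdkn2b*, which encodes p15, with 36.1, 48.0, 37.4 and 38.6. *Cdkn1b*, the gene of p27, was far below both other Cip/Kip genes, at 9.13 and 8.68 CPM per kb in WT against 9.44 and 8.83 in *Phf2* KO. All 4 of the most abundant genes were above 88.8% of the genes ranked in every library, while *Cdkn1b* ranked above 60.2% to 61.7%.

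Among the pocket proteins *Rbl2* was the most abundant per length, with 10.2 and 9.54 CPM per kb in WT against 9.79 and 8.99 in *Phf2* KO MEFs. *Rb1*, the retinoblastoma gene, was at 1.68 and 1.61 CPM per kb in WT against 2.11 and 1.89 in *Phf2* KO. *Rbl1* was lower still, at 0.858 and 0.527 CPM per kb in WT against 0.838 and 0.472 in *Phf2* KO. The INK4 gene *Cdkn2c*, which encodes p18, lay between *Cdkn1b* and *Rb1* at 4.39, 2.90, 4.08 and 3.27 CPM per kb. *Cdkn2d*, which encodes p19Ink4d, was barely detected, with 4 and 9 counts in WT against 10 and 20 in *Phf2* KO. The ranges of neighbouring genes over the 4 libraries overlapped for *Rbl2* and *Cdkn1b* and for *Rbl1* and *Cdkn2d*, and no other neighbours in this order overlapped. Lengths are those of GENCODE vM1 on mm9, since the annotation behind the counts is not given in the sources used here.

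**Figure D1:**
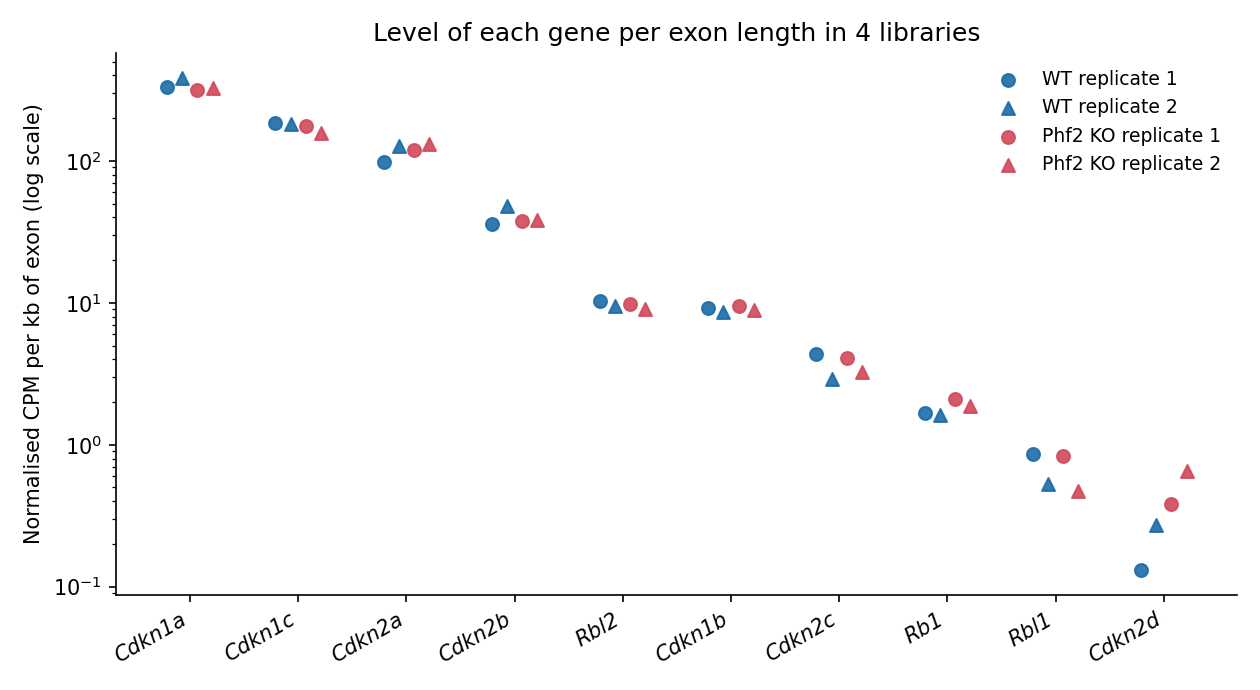
The normalised CPM per kb of exon (log scale) is plotted for each gene in WT (blue) and *Phf2* KO (red) replicates 1 (circles) and 2 (triangles), 1 point per library. *Cdkn1a* lies between 316.1 and 385.6 in all 4 libraries, and *Rbl2* between 8.99 and 10.2, above *Rb1* and *Rbl1* in each.

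On mm9 the genes lie on 8 chromosomes, and 3 of the 4 INK4 genes share chromosome 4. *Cdkn2a* (chromosome 4, 88920377 to 88940557, reverse strand) and *Cdkn2b* (88952198 to 88956941, reverse strand) are neighbours with 11640 bases between them, and *Cdkn2c* (109333481 to 109339794, reverse strand) lies 20376539 bases beyond *Cdkn2b*. *Cdkn1a* is on chromosome 17 (29227924 to 29237667, forward strand), *Cdkn1c* on chromosome 7 (150644255 to 150646955, reverse strand) and *Cdkn1b* on chromosome 6 (134870419 to 134875531, forward strand). *Rb1* (chromosome 14, 73583480 to 73725629, reverse strand), *Rbl1* (chromosome 2, 156971629 to 157030270, reverse strand) and *Rbl2* (chromosome 8, 93593956 to 93647743, forward strand) overlap other annotated genes, but 0 bases of exon are shared with a gene on the same strand, and the alignment is given as strand-specific. *Cdkn2d* is on chromosome 9 (21092907 to 21095653, reverse strand).

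The promoter windows of *Rbl1*, *Cdkn2a* and *Cdkn2b* are shown because these genes differed between the replicate numbers and because the first is a textbook E2F target. Each runs from 250 bases before to 50 bases after a RefSeq start on GRCm38.p6, 5′ to 3′ on the strand of the gene. Capitals mark the E2F letters TTTCCCGC, TTTGGCGC, TTTCGCGC or TTTGCCGC and the CHR letters TTTGAA, the element that DREAM can bind, on either strand, so that TTTGAA on the other strand reads TTCAAA. The windows lie at chr2:157204485-157204784 for *Rbl1*, chr4:89294570-89294869 and chr4:89282143-89282442 for the upstream (p19Arf) and downstream (p16) starts of *Cdkn2a*, and chr4:89310983-89311282 for *Cdkn2b*, all on the reverse strand.
Rbl1: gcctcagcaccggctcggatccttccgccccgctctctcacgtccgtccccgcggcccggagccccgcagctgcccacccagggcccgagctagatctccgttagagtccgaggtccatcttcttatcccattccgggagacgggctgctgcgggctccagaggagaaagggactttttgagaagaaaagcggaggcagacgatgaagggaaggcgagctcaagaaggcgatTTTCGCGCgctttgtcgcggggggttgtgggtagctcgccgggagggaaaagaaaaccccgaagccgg
Cdkn2a upstream start: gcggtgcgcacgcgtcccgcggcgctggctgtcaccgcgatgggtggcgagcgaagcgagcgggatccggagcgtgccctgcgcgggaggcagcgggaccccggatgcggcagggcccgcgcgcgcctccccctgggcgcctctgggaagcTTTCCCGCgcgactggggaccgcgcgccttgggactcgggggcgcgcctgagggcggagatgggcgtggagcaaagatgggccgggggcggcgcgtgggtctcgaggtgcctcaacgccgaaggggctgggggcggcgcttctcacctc
Cdkn2a downstream start: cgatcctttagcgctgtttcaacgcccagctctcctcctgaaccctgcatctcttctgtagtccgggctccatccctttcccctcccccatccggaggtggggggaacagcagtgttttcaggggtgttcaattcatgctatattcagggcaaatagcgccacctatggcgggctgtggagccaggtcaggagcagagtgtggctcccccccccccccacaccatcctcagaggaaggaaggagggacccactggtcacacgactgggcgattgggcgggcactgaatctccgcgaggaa
Cdkn2b: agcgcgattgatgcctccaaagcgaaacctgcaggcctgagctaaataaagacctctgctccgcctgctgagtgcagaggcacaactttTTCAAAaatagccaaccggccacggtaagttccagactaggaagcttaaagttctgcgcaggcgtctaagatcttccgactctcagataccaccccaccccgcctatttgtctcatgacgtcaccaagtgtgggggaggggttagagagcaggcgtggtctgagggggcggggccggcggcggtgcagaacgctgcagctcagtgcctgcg
The *Rbl1* window holds 1 E2F sequence, TTTCGCGC, beginning 18 bases before the start. The upstream *Cdkn2a* window holds TTTCCCGC, beginning 99 bases before the start, and the downstream window holds neither E2F nor CHR letters. *Cdkn2b* has the CHR letters on the other strand, beginning 161 bases before the start, and *Rbl2* has them as well. In all, 8 of the 10 genes matched a window, by symbol, in 11 windows, of which 2 held E2F letters and 2 the CHR. Over all 32851 windows of this length the shares were 2.265% and 17.9%. Neither *Cdkn2c* window held either motif. GC boxes (GGGCGG, either strand) were in 9 of the 11 windows, against 35.7% of all windows, and TATAAA was in 0 of 11, against 13.6%. An exact p53 response element of adjoining copies was in 0 of 11 windows, both windows of *Cdkn1a* included, against 0.009%. The search allowed no mismatch and no spacer, and only 3 of the 32851 windows matched. It therefore cannot show that a window lacks a p53 site.

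The first comparison asked whether any of these genes differed between *Phf2* KO and WT MEFs. None of the 10 was called by edgeR's quasi-likelihood test (adjusted p = 0.999 for each after Benjamini-Hochberg adjustment over 13668 genes), where 0.00732% of all genes were called at an adjusted p under 0.1. At an unadjusted p under 0.05 the count was also 0 of 10, where 1.54% of all genes were higher and 2.67% lower, and DESeq2 and limma-voom called 0. Without the replicate term, the difference between replicate numbers stayed in the error of edgeR's test (common dispersion 0.0451, against 0.00363 with the term). The same test did not call *Phf2* either, so that a gene not called was not shown to be unchanged. All 10 of the inhibitor and pocket protein genes passed the filter on low counts. Their median log2 fold change was -0.03, beside 0.01 over all genes tested, with 5 above and 5 below 0. Both *Phf2* KO libraries were below both WT libraries for 2 genes and above them for 2, patterns found in 18.0% and 15.5% of all genes.

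Of the Cip/Kip genes, *Cdkn1a* was counted 17798 and 22245 times in replicates 1 and 2 of WT against 14561 and 17375 in *Phf2* KO. Normalised, these were 738.4 and 857.3 CPM in WT against 702.8 and 722.8 in *Phf2* KO, so that the groups did not overlap and the *Phf2* KO mean was 89.3% of the WT mean. The log2 fold change of -0.16 had a standard error of 0.11 and a 95% interval from -0.47 to 0.14. *Cdkn1c* had the same pattern, with 355.6 and 349.9 CPM in WT against 340.8 and 304.3 in *Phf2* KO (log2 fold change -0.13, standard error 0.10, interval -0.39 to 0.13). *Cdkn1b* was at 41.6 and 39.5 CPM in WT against 43.0 and 40.2 in *Phf2* KO, and its log2 fold change was 0.04 (standard error 0.10, interval -0.22 to 0.29). For this gene the replicates of 1 group lay farther apart than the group means. Within each replicate number alone, *Cdkn1a* differed by -0.07 log2 units in replicate 1 (95% interval for counting error -0.10 to -0.04) and by -0.25 in replicate 2 (-0.27 to -0.22). *Cdkn1c* differed by -0.06 (-0.11 to -0.02) and -0.20 (-0.25 to -0.16). These intervals compare 1 library with 1 and hold no spread between cultures.

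The INK4 genes went both ways. *Cdkn2a* was counted 2781 and 3868 times in WT against 2882 and 3692 in *Phf2* KO, or 115.4 and 149.1 against 139.1 and 153.6 CPM. WT replicate 1 was the lowest library and the other WT library lay between both *Phf2* KO libraries, and the log2 fold change was 0.15 (standard error 0.15, interval -0.25 to 0.55). *Cdkn2b* was counted 1213 and 1736 times in WT against 1080 and 1292 in *Phf2* KO, or 50.3 and 66.9 against 52.1 and 53.7 CPM (log2 fold change -0.15, standard error 0.16, interval -0.56 to 0.27). Here WT replicate 2 was the highest library, and the other 3 lay close together. *Cdkn2c* was counted 284 and 202 times in WT against 227 and 211 in *Phf2* KO, with a log2 fold change of 0.01 (standard error 0.26, interval -0.68 to 0.70). *Cdkn2b* differed by 0.05 log2 units in replicate 1 (counting interval -0.07 to 0.17) and by -0.32 in replicate 2 (-0.42 to -0.21), and *Cdkn2a* by 0.27 (0.19 to 0.35) and 0.04 (-0.02 to 0.11). For *Cdkn2b* and *Cdkn2c* the direction in replicate 1 was the opposite of that in replicate 2, and the other 8 genes had the same sign in both.

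*Cdkn2d* had the largest fold change and the fewest counts of the 10 genes. Its level was 0.166 and 0.347 CPM in WT against 0.483 and 0.832 in *Phf2* KO, against a detection limit of 0.116 to 0.145. The groups did not overlap, and the log2 fold change was 1.34 (standard error 0.59, interval -0.21 to 2.89). With the replicate number as a term in the fit it was called higher in *Phf2* KO (log2 fold change 1.34, standard error 0.50, edgeR adjusted p = 0.0753), the 1 gene of the 10 that this fit called, beside 5.77% of all genes called higher and 5.20% called lower. DESeq2 with the same term gave *Cdkn2d* an unadjusted p of 0.220 and no adjusted p, against an unadjusted p of 0.00745 from edgeR. In replicate 1 alone the counting interval ran from -0.25 to 3.67 log2 units and in replicate 2 from 0.06 to 2.58.

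Of the pocket proteins, *Rb1* was counted 244 and 251 times in WT against 263 and 273 in *Phf2* KO MEFs. Its level was 10.1 and 9.67 CPM in WT against 12.7 and 11.4 in *Phf2* KO, or 121.5% of the WT mean, and the groups did not overlap. The log2 fold change of 0.28 had a standard error of 0.14 and an interval from -0.10 to 0.66, and it was not called with the replicate term either (edgeR adjusted p = 0.240). *Rb1* differed by 0.33 log2 units in replicate 1 (counting interval 0.07 to 0.58) and by 0.23 in replicate 2 (-0.02 to 0.48). *Rbl2* was counted 1714 and 1724 times in WT against 1412 and 1504 in *Phf2* KO, or 71.1 and 66.4 against 68.1 and 62.6 CPM (log2 fold change -0.07, standard error 0.09, interval -0.32 to 0.17). *Rbl1* was counted 124 and 82 times in WT against 104 and 68 in *Phf2* KO (log2 fold change -0.08, standard error 0.40), and its interval ran from -1.14 to 0.97, or from -0.48 to 0.30 with the replicate term.

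**Figure D2:**
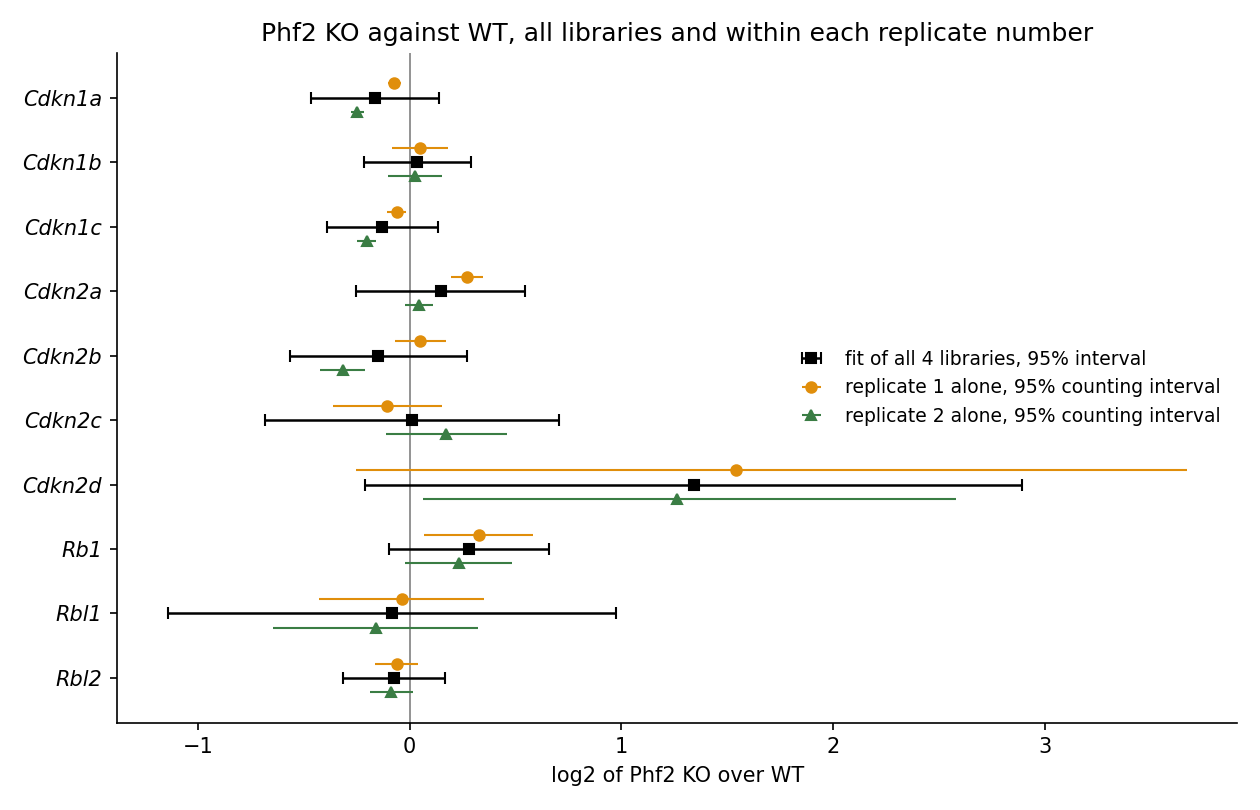
The log2 of *Phf2* KO over WT is plotted for each gene from edgeR with all 4 libraries (black squares, 95% interval) and within replicate 1 (orange circles) and replicate 2 (green triangles), whose bars are 95% counting intervals. The black interval holds 0 for all 10 genes, is narrowest for *Rbl2* (-0.32 to 0.17) and widest for *Cdkn2d* (-0.21 to 2.89).

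Shares within each family, taken per length in each library, set the genes against each other with library scaling removed. In the pocket family *Rbl2* made up 80.1% and 81.7% in replicates 1 and 2 of WT against 76.9% and 79.2% in *Phf2* KO. *Rb1* made up 13.2% and 13.8% in WT against 16.6% and 16.6% in *Phf2* KO, so that there were 6.07 and 5.93 *Rbl2* transcripts per *Rb1* transcript in WT against 4.64 and 4.76 in *Phf2* KO. The change in the ratio of *Rb1* to *Rbl2* was 0.39 log2 units in replicate 1 (counting interval 0.11 to 0.67) and 0.32 in replicate 2 (0.05 to 0.59). For the neighbours *Cdkn2a* and *Cdkn2b* the ratio per length was 2.73 and 2.65 in WT against 3.18 and 3.40 in *Phf2* KO, a change of 0.22 log2 units in replicate 1 (counting interval 0.08 to 0.36) and 0.36 in replicate 2 (0.24 to 0.48). In both ratios the *Phf2* KO libraries lay outside the WT range. The ratios of *Cdkn1a* to *Cdkn1b*, *Cdkn1a* to *Cdkn1c*, *Rbl2* to *Rbl1* and *Cdkn2b* to *Cdkn2c* overlapped between the groups. For levels of single genes, both *Phf2* KO libraries lay above both WT libraries in 15.5% of all genes and below them in 18.0%. Different genes moved the ratio of *Cdkn2a* to *Cdkn2b*. In replicate 1 *Cdkn2a* differed by 0.27 log2 units and *Cdkn2b* by 0.05, and in replicate 2 by 0.04 and -0.32. The counting intervals hold no spread between cultures. An exact two-sided permutation test of 2 against 2 libraries gave p = 0.333 for the share of *Rb1*, *Rbl2*, *Cdkn2a* and *Cdkn2b*. The shares of *Cdkn1b* and *Cdkn2d* had the same p, which is the smallest that this design allows.

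The ratio of *Cdkn1a* to *Cdkn1c* lay closer between genotypes of 1 replicate number than between replicates, at 1.80 and 2.13 in WT against 1.79 and 2.06 in *Phf2* KO. *Cdkn1a* made up between 63.0% and 67.0% of the Cip/Kip family and *Cdkn1b* between 1.51% and 1.88%. The ratio of *Rbl2* to *Rbl1* was 11.9 and 18.1 in WT against 11.7 and 19.0 in *Phf2* KO, again alike within a replicate number. The Cip/Kip family summed to 525.4 and 575.5 CPM per kb in WT against 502.0 and 491.6 in *Phf2* KO, and the pocket family to 12.8 and 11.7 in WT against 12.7 and 11.4 in *Phf2* KO.

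**Figure D3:**
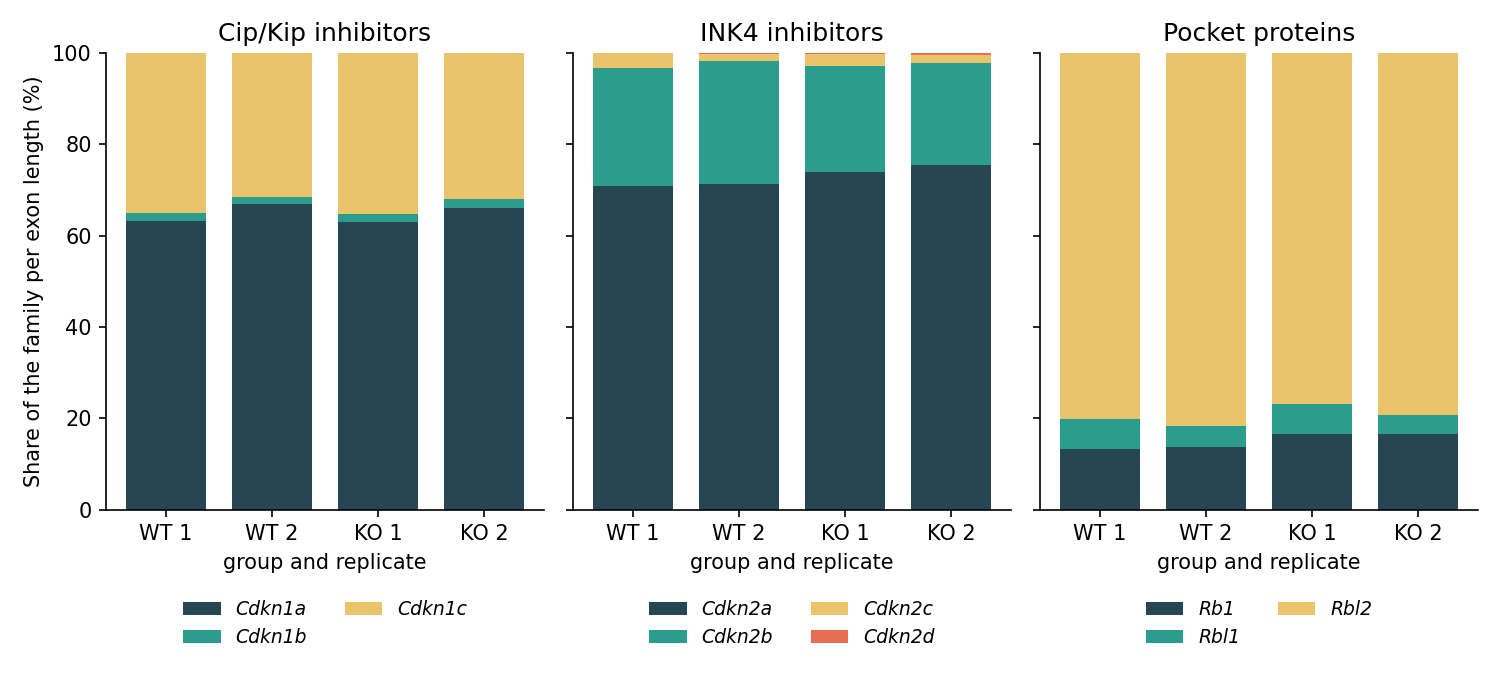
Stacked bars give the share (%) of each gene in its family, from CPM per kb of exon, in WT and *Phf2* KO replicates 1 and 2 (1 bar per library). *Cdkn1a*, *Cdkn2a* and *Rbl2* take the largest share of their families in all 4 libraries, and *Rb1* goes from 13.2% and 13.8% in WT to 16.6% in both *Phf2* KO libraries.

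The second comparison set replicate 2 against replicate 1, with genotype in the fit, to show how far the inhibitors and pocket proteins differed between the replicate numbers. Of the 10 genes, 4 were called by edgeR's quasi-likelihood test, beside 26.2% of all genes, with 2 higher and 2 lower in replicate 2. *Cdkn2a* (log2 difference 0.26, standard error 0.08, adjusted p = 0.0123) and its neighbour *Cdkn2b* (0.23, standard error 0.09, adjusted p = 0.0387) were higher in replicate 2. *Rbl1* (-0.76, standard error 0.20, adjusted p = 0.00125) and *Cdkn2c* (-0.46, standard error 0.14, adjusted p = 0.00911) were lower. The test counts same-numbered WT and *Phf2* KO libraries as separate cultures, and whether they share an embryo is not stated. If they do, these p-values do not measure the spread between embryos. DESeq2 called 0 of the 10 along the replicate number, with 2 at an unadjusted p under 0.05, while calling 475 genes higher and 889 lower among 13420.

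The difference between replicates was seen in WT and in *Phf2* KO MEFs separately for *Rbl1*, at -0.70 log2 units (counting interval -1.12 to -0.29) and -0.83 (-1.29 to -0.37). *Cdkn2c* differed by -0.60 (-0.87 to -0.33) in WT and -0.32 (-0.60 to -0.04) in *Phf2* KO. *Cdkn2a* differed by 0.37 (0.30 to 0.44) in WT and 0.14 (0.07 to 0.21) in *Phf2* KO. *Cdkn2b* differed by 0.41 (0.30 to 0.52) in WT and by 0.04 (-0.07 to 0.16) in *Phf2* KO, where the interval holds 0. Both replicate 2 libraries were above both replicate 1 libraries for 2 of the 10 genes and below them for 4, patterns found in 25.4% and 24.2% of all genes.

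Genes that E2F and DREAM act on differed between the replicate numbers as well. Of 30 E2F and DREAM targets, 17 were lower and 0 higher in replicate 2, with a median log2 difference of -0.45, beside 13.6% of all genes called lower and 12.6% called higher. Among cyclins and CDKs, 5 of 12 were lower and 2 higher, and among E2F and DP factors 2 of 10 were lower. Named after their values were seen, *Mki67*, a marker of cycling cells, was counted 1070 and 432 times in replicates 1 and 2 of WT against 585 and 465 in *Phf2* KO, and *Cdk6*, the partner of D-type cyclins, 370, 282, 380 and 255 times. *Skp2*, which marks p27 for degradation, was counted 200, 128, 150 and 114 times. Of the 24 targets with a promoter window, 9 held E2F letters, 6 of the 15 called lower in replicate 2 and 3 of the other 9. The CHR letters were in 7, which were 6 of the 15 and 1 of the other 9. The 15 macrophage markers tested were all lower in replicate 2 (median -2.04), and their part in these differences, like that of sex, was not tested.

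**Figure D4:**
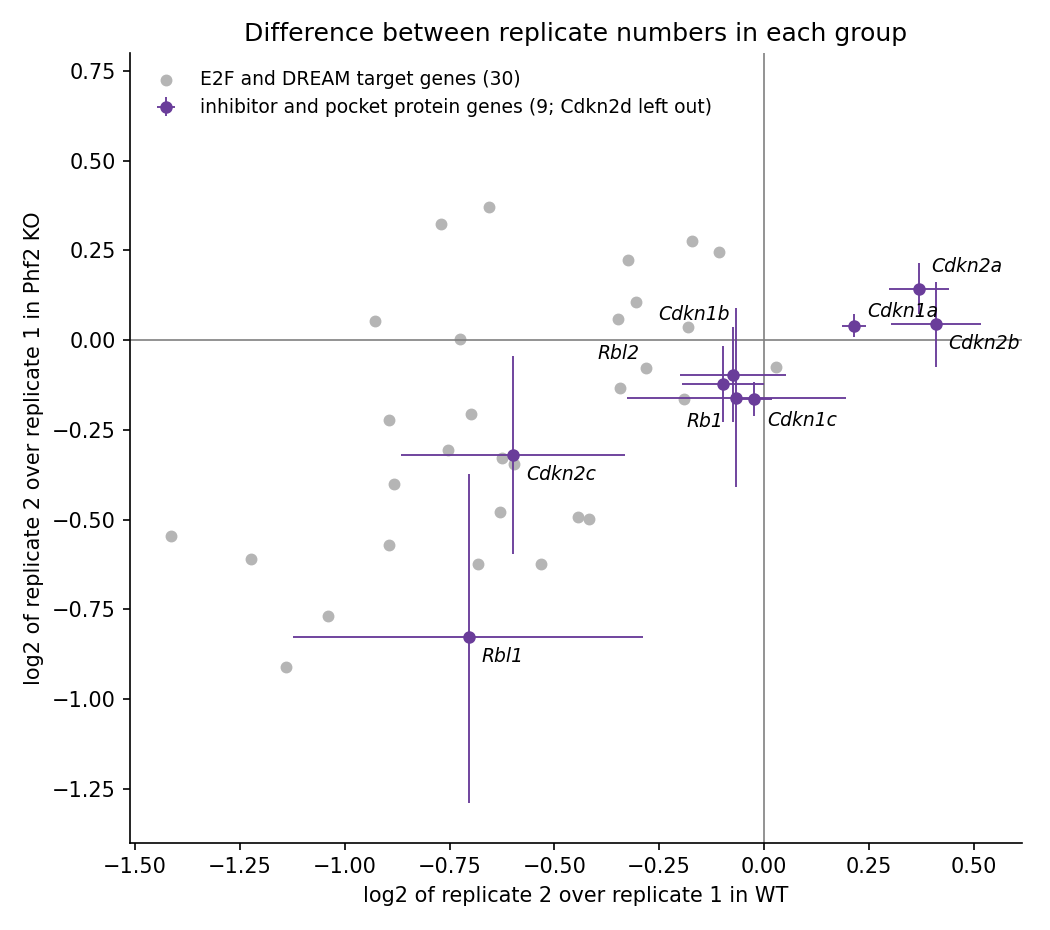
The log2 of replicate 2 over replicate 1 in *Phf2* KO (vertical) is plotted against that in WT (horizontal). Purple points are 9 inhibitor and pocket protein genes (without *Cdkn2d*), with 95% counting intervals. Grey points are 30 E2F and DREAM targets, without intervals. *Rbl1* and *Cdkn2c* lie below 0 on both axes among the targets, and *Cdkn1b*, *Cdkn1c*, *Rb1* and *Rbl2* lie less far below 0 on both. *Cdkn2a*, *Cdkn2b* and *Cdkn1a* lie above 0 on both.

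Genes around the inhibitors in the pathway were read between *Phf2* KO and WT in the same way, and edgeR's quasi-likelihood test without the replicate term called 0 of them. The counts that follow are for the fit with the replicate term. Among 12 cyclins and CDKs, 10 E2F and DP factors, 5 MuvB subunits and 10 subunits of the ubiquitin ligases that degrade p21 and p27, 0 were called, and at an unadjusted p under 0.05 without that term 0 were found. *Ccnd2*, the most abundant cyclin of the list, was counted 34509 and 46079 times in WT against 32799 and 43707 in *Phf2* KO (log2 fold change 0.08, standard error 0.16), and *Cdk4*, the kinase that INK4 proteins bind, 7494, 8318, 6972 and 8118 times (0.09, standard error 0.08). *E2f4*, the E2F of the DREAM complex, was counted 1216 and 1298 times in WT against 937 and 1072 in *Phf2* KO (-0.16, standard error 0.08), and *E2f1*, an activating E2F, 1294, 1411, 1119 and 1246 times (-0.03, standard error 0.08). *Rbbp4*, a histone-binding subunit of MuvB, had a log2 fold change of -0.16 (standard error 0.09), and *Lin37*, another MuvB subunit, of 0.04 (standard error 0.14). *Ddb1* and *Cul4a*, of the ligase that degrades p21 in S phase, had log2 fold changes of 0.02 (standard error 0.10) and 0.00 (standard error 0.08).

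Of 30 E2F and DREAM targets, 3 fell and 0 rose in *Phf2* KO with the replicate term, in which 5.20% of all genes fell and 5.77% rose, and the median of the list was 0.06 without it and 0.07 with it. *Rrm1*, a subunit of ribonucleotide reductase, was counted 1941 and 1830 times in WT against 1329 and 1375 in *Phf2* KO (log2 fold change -0.32, edgeR adjusted p = 0.00517, replicate term included). The helicase subunits *Mcm2* (-0.30, adjusted p = 0.0276) and *Mcm6* (-0.35, adjusted p = 0.0240) were the others, with groups that overlapped. Of 17 transcriptional regulators of inhibitor genes, 2 rose and 3 fell with the replicate term, beside the same 5.77% and 5.20% of all genes. *Id1*, a BMP target that represses *Cdkn2a*, was counted 607 and 856 times in WT against 756 and 1137 in *Phf2* KO (0.53, adjusted p = 2.67e-06), and *Smad3*, the TGF-beta effector that acts on *Cdkn2b*, 1978, 2283, 2058 and 2405 times (0.23, adjusted p = 0.0610). *Myc*, a repressor of *Cdkn1a* and *Cdkn2b*, was counted 1080 and 1002 times in WT against 744 and 680 in *Phf2* KO (-0.38, adjusted p = 0.00154). *Sp1*, which binds GC boxes, had a log2 fold change of -0.33 (adjusted p = 0.00444) and *Rnf2*, the Polycomb ubiquitin ligase at the *Cdkn2a* locus, of -0.27 (adjusted p = 0.0738). For each of these 5 regulators the *Phf2* KO libraries did not overlap the WT libraries. Over all genes, 15.5% had both *Phf2* KO libraries above both WT libraries and 18.0% had them below. The 5 were named because this fit called them, so that the separation is not further support.

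The counts in the lists that follow stand beside 5.77% of all genes higher and 5.20% lower with the replicate term. Of 9 chromatin regulators that bind pocket proteins, *Sin3a*, the scaffold of a histone deacetylase complex, was the 1 gene that fell with the replicate term (1423 and 1457 counts in WT, 1005 and 1080 in *Phf2* KO, log2 fold change -0.30, edgeR adjusted p = 0.0119). Of 9 genes associated with growth arrest, *Gas7* fell (1323, 829, 798 and 619 counts, log2 fold change -0.42, adjusted p = 0.000429, groups overlapping) and 0 rose. Of 8 genes beside the inhibitors on their chromosomes, 6 passed the filter, and *Kcnq1ot1*, the imprinted RNA that silences *Cdkn1c* in cis on the paternal chromosome, rose with the replicate term (608 and 946 counts in WT, 737 and 1442 in *Phf2* KO, log2 fold change 0.61, adjusted p = 7.84e-09), although the groups overlapped. In the same fit 9 of 15 macrophage markers rose and 0 fell, and 2 of 11 fibroblast markers fell, and their part in these differences was not tested.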

How the data were processed

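The data were RNA-seq libraries of primary MEFs, 2 of WT and 2 of *Phf2* KO. Reads were processed by the authors (Trim Galore, then bowtie2 against rRNA, STAR on mm9 in reverse stranded mode, and featureCounts). The counts were deposited as whole numbers per gene symbol, without normalisation; tool versions and annotation release are not given in the sources used here. A deposited table of the authors' DESeq2 comparison (fold changes and p-values) was not used. Groups and replicate numbers came from the sample titles. The study calls them biological replicates, and *Xist* and *Ddx3y* differed between the numbers, so replicates 1 and 2 were not cells of 1 embryo. Whether same-numbered WT and *Phf2* KO libraries share an embryo is not stated. The 10 genes and the gene lists were chosen with earlier results of these data known. Genes named from the lists were those called by genotype with or without the replicate block, at most 6 a list by size, or else the 2 with the highest counts; *Mki67*, *Cdk6* and *Skp2* were named after their values were seen.

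The tests ran under R 4.3.3, using edgeR 4.0.16 (filterByExpr, TMM, glmQLFit, glmQLFTest, Benjamini-Hochberg adjustment, threshold 0.1), without and with the replicate number as a block. Alternatives were limma-voom (limma 3.58.1), DESeq2 1.42.0, RLE scaling, no filter, a threshold of 0.05 and each library left out. The edgeR fits, but not limma-voom or DESeq2, were tried on simulated data first. Standard errors are the log2 fold change over the root of the F statistic. Counting intervals are exact at 95%. Positions and union exon lengths came from GENCODE vM1 on NCBIM37 (mm9), on which 2224 of 24391 symbols were not placed. Promoters came from RefSeq on GRCm38.p6. Figures used Python 3.11.15 and Matplotlib 3.10.9.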

Additional observations from a re-analysis of the deposited data

How the results depend on the processing

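With 2 libraries a group, intervals of the log2 fold change were wide, and at most 20 counts left *Cdkn2d* near the limit of detection. No alternative called a member between genotypes except the replicate block, in which 1 was higher (*Cdkn2d*), but DESeq2 with the replicate block gave an adjusted p to 6 of the 10 members only (none to *Cdkn2c*, *Cdkn2d*, *Rb1* and *Rbl1*). Whether the replicate numbers pair the libraries is not stated. Across 13656 genes, replicate differences in WT and *Phf2* KO had a Pearson's r of 0.746 (genes are not independent replicates). Over all genes the replicate block gave 789 higher and 711 lower, DESeq2 10 and 54, DESeq2 with the replicate block 183 and 119 (of 7550 genes with an adjusted p, against 13668 for edgeR), and limma-voom and a threshold of 0.05 gave 0 and 0 (at an unadjusted p under 0.05, 223 and 352 for limma-voom and 211 and 365 for edgeR), against 0 and 1 without a block. Without 1 library, edgeR's count of lower genes was 0 each time, with between 154 and 316 at an unadjusted p under 0.05; where a group was left with 1 library, it was assumed to vary like the other group. The cause was not tested. Along the replicate number, DESeq2 called 0 higher and 0 lower members, against 2 and 2. No library could be left out there, since the fit would have had no residual degrees of freedom.

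Leaving out 1 library moved the log2 fold change of *Cdkn1b* between -0.013 and 0.085 (lowest without *Phf2* KO replicate 1, and -0.00023 without WT replicate 2), of *Cdkn2a* between -0.015 (without WT replicate 1) and 0.34, of *Cdkn2b* between -0.33 and 0.073 (without WT replicate 2), of *Cdkn2c* between -0.26 (without WT replicate 2) and 0.35 (-0.16 without *Phf2* KO replicate 1) and of *Rbl1* between -0.55 and 0.32 (without WT replicate 1, and 0.27 without *Phf2* KO replicate 2), so that these 5 changed sign. *Cdkn1a* (-0.25 to -0.05), *Cdkn1c* (-0.21 to -0.05), *Cdkn2d* (0.89 to 1.96), *Rb1* (0.20 to 0.36) and *Rbl2* (-0.14 to -0.01) did not. With the longest transcript in place of all exons, the WT shares moved to 68.5% for *Cdkn1a*, 75.4% for *Cdkn2a* and 82.4% for *Rbl2*, and the order within the families was the same.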
